A study of Porolithon cf. onkodes and Sporolithon durum with 38 samples.

Results

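Carriers of sugar phosphates and other solutes were examined through 2 transcripts of Porolithon cf. onkodes (P. onkodes), a crustose coralline red alga that builds coral reefs: DN75856_c1_g1_i1, named by the study as a triose phosphate translocator (TPT), and DN73638_c0_g1_i4, named as an ABC transporter. They were picked by name from the study's list of proteins in overrepresented processes, which was itself drawn from transcripts that differed between treatments in these same libraries. The treatment values of both transcripts are therefore given as a description, without a test. They are 2 of the 118126 P. onkodes transcripts in the count table and of 303162 transcripts in the whole series, which also holds the alga Sporolithon durum, and both passed a filter of at least 5 counts in all, as did 29276 P. onkodes transcripts (24.8%).

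Pieces of P. onkodes had been kept for 3 months in flow-through aquaria, and RNA of their pigmented tissue was sequenced by CEL-Seq2, a method that tags the 3′ end of each mRNA. In the T + pH treatment (5 libraries) the water was at 29.5 °C and pH 7.7 with 1000 µatm pCO2. In T (4 libraries) only temperature was raised, with 29.5 °C, pH 8.0 and 450 µatm, and in pH (4 libraries) only acidity, with 27.2 °C, pH 7.7 and 1000 µatm. The control (4 libraries) was at 27.2 °C, pH 8.0 and 450 µatm. Libraries are called by their labels (PO and a number), and the labels describe the fragments of a treatment as biological replicates. Within each fragment, fewer cells of a kind and less RNA per cell cannot be told apart.

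TPT sits in the inner envelope of the plastid in plants and algae, where it passes the triose phosphates made by the Calvin cycle out of the plastid in exchange for inorganic phosphate, so that carbon leaves the plastid while phosphate returns to it for ATP synthesis. In red algae the exported carbon feeds the making of floridean starch and floridoside in the cytosol. ABC transporters use ATP to drive solutes across membranes, and their B family includes exporters of small molecules at the cell surface as well as carriers of the mitochondrial membrane. The names of both transcripts are matches to proteins of other species. For the ABC transporter the study's lists name different members of the B family, 1 of them mitochondrial, so that its membrane is not settled by the annotation.

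Depth differed widely between libraries, with total counts of 78142 to 3012292 in T + pH, 191000 to 2874863 in T, 159937 to 988016 in pH and 205975 to 2629626 in the control. The label of pigmented algal tissue was checked with 4 transcripts of photosynthesis and chlorophyll synthesis, a check that does not tell red algae from other algae. The photosystem II protein CP47 was counted in 15 of the 17 libraries, a cytochrome b6-f subunit in 10, a PsbP-like protein in 17 and the magnesium chelatase subunit ChlD in 14. All replicate pairs differed by more than sampling noise, so that each library was counted as 1 sample. Levels below are CPM, counts relative to the size of their library after library sizes were scaled by TMM, the trimmed mean of M-values. Transcript lengths were not used, so levels are compared between treatments and not between transcripts.

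TPT was more abundant in T + pH than in the other treatments. Its level was 142 CPM in PO6, 78.2 in PO7, 145 in PO12, 288 in PO15 and 74.3 in PO19 of the T + pH treatment. The T libraries held 68.8 CPM in PO1, 14.2 in PO2, 44.0 in PO8 and 27.8 in PO18. Levels in pH were 15.3 CPM in PO3, 49.7 in PO5, 49.0 in PO11 and 92.3 in PO14. Among all single-stressor libraries, PO14 was thus the only one that reached into the range of T + pH. In the control, TPT stood at 50.5 CPM in PO4, 28.6 in PO10, 54.9 in PO16 and 27.2 in PO17. Every T + pH library lay above every control library and above every T library, whereas T, pH and control overlapped one another.

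Expressed as means, TPT had 146 ± 86.7 CPM in T + pH (SD, n = 5), 38.7 ± 23.5 in T, 51.6 ± 31.5 in pH and 40.3 ± 14.4 in the control (SD, n = 4 each). The order was T + pH, pH, control and T, and the last 3 differed by less than their SD. CPM ranges that lay entirely above those of the control were found for 0.570% of all tested transcripts, and for 0.396% against T, and since TPT was chosen for its difference between treatments, nothing is read from its place among them.

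**Figure D1:**
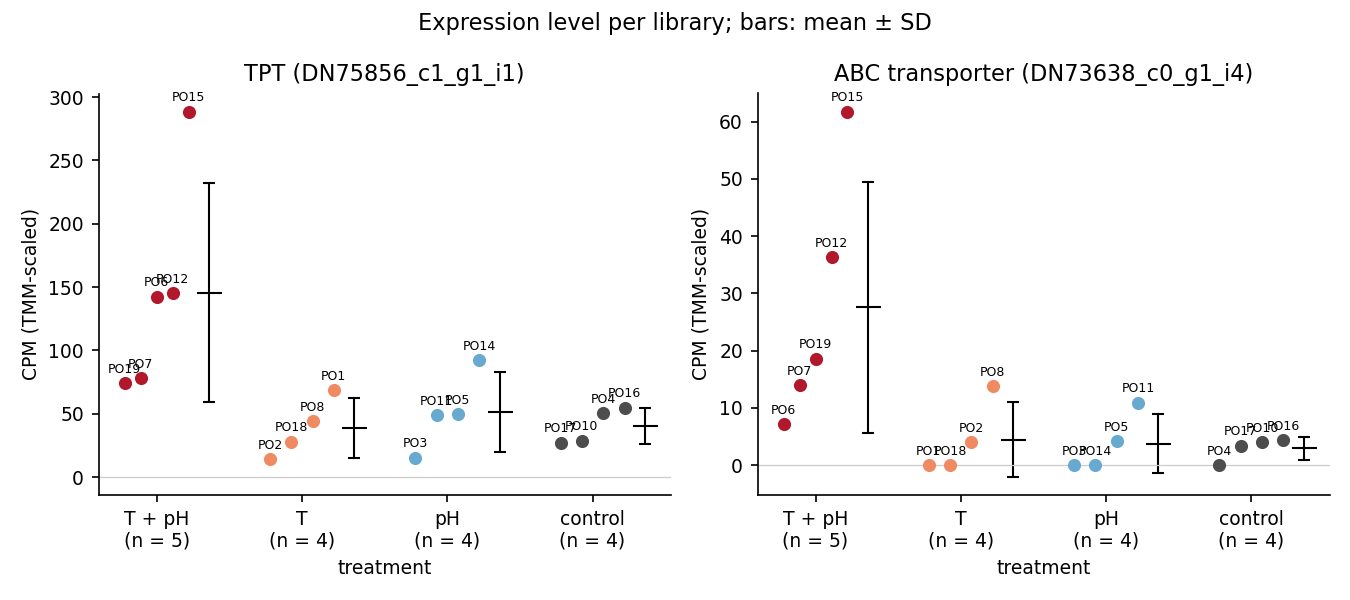
Expression level (CPM, TMM-scaled, linear axis from 0) of TPT (left) and the ABC transporter (right) in each P. onkodes library, by treatment. Points are single libraries with their labels, and bars give the mean ± SD of a treatment (n = 5 in T + pH and 4 in each other treatment). PO15 is the highest library for both transcripts, with 288 CPM of TPT and 61.7 CPM of the ABC transporter.

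The fitted log2 fold change of TPT was 1.94 (SE 0.49) for T + pH against the control, 2.02 (SE 0.50) against T and 1.65 (SE 0.50) against pH. These came from 1 edgeR model over all 17 libraries. By contrast, T against the control gave -0.08 (SE 0.52), pH against the control 0.29 (SE 0.53) and pH against T 0.37 (SE 0.53), each smaller than its standard error. Read along the other factor, raised temperature went with a log2 fold change of 1.65 at pH 7.7 and of -0.08 at pH 8.0, and low pH went with 2.02 at 29.5 °C and with 0.29 at 27.2 °C. Comparisons with the same treatment share its libraries and are not independent of each other.

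Of the 1671 TPT counts in all libraries, 1369 (81.9%) came from T + pH, 103 from T, 78 from pH and 121 from the control, while T + pH held 37.8% of the counts of all transcripts. PO15, the deepest library, alone gave 1000 TPT counts (59.8%), against 19.5% of all counts. Without PO15 the log2 fold changes of T + pH were 1.62 against T, 1.25 against pH and 1.49 against the control. At the other end, PO19 gave 4 TPT counts, and its 74.3 CPM has an exact Poisson 95% interval of 20.3 to 190 CPM that spans the levels of most other libraries. Intervals and limits given here cover counting error only.

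The ABC transporter was a low-count transcript that was likewise most abundant in T + pH. It was counted in all 5 T + pH libraries, at 7.18 CPM in PO6, 14 in PO7, 36.3 in PO12, 61.7 in PO15 and 18.6 in PO19. In T it was at 0 in PO1 and PO18, at 3.96 CPM in PO2 and at 13.8 CPM in PO8. In pH it was at 0 in PO3 and PO14, at 4.23 CPM in PO5 and at 10.9 CPM in PO11. The single-stressor treatments each held 1 library, PO8 of T and PO11 of pH, that fell within the range of T + pH. Control libraries had 0 in PO4, 4.03 CPM in PO10, 4.39 in PO16 and 3.39 in PO17. All T + pH libraries lay above all control libraries, but overlapped T and pH. Ranges entirely above the control were found for 0.570% of all tested transcripts. Since the ABC transporter was also chosen for its difference between treatments, nothing is read from this.

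Where no count was seen, the depth limits what can be said. A count of 0 allows a level of up to 15.2 CPM in PO4 of the control, 10.3 and 16.7 CPM in PO1 and PO18 of T, and 5.12 and 21.3 CPM in PO3 and PO14 of pH (3 counts in that library). Most of these limits lie above the 7.18 CPM of PO6, the lowest T + pH library, so a count of 0 does not exclude a level as high as that of PO6 in 4 of the 5 libraries at 0. PO19 held a single count of the transcript, with an exact Poisson 95% interval of 0.470 to 104 CPM.

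Mean levels of the ABC transporter were 27.6 ± 21.9 CPM in T + pH (SD, n = 5), 4.45 ± 6.53 in T, 3.78 ± 5.14 in pH and 2.95 ± 2.01 in the control (SD, n = 4 each). The order was T + pH, T, pH and control, and the last 3 were not separated by their spread. Its log2 fold change was 2.99 (SE 0.77) for T + pH against the control, 2.32 (SE 0.71) against T and 3.10 (SE 0.84) against pH, and 0.67 (SE 0.86) for T against the control, -0.10 (SE 0.97) for pH against the control and -0.77 (SE 0.94) for pH against T. Temperature thus went with 3.10 at pH 7.7 and 0.67 at pH 8.0, and low pH with 2.32 at 29.5 °C and -0.10 at 27.2 °C. Standard errors were larger than those of TPT in all 6 comparisons.

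**Figure D2:**
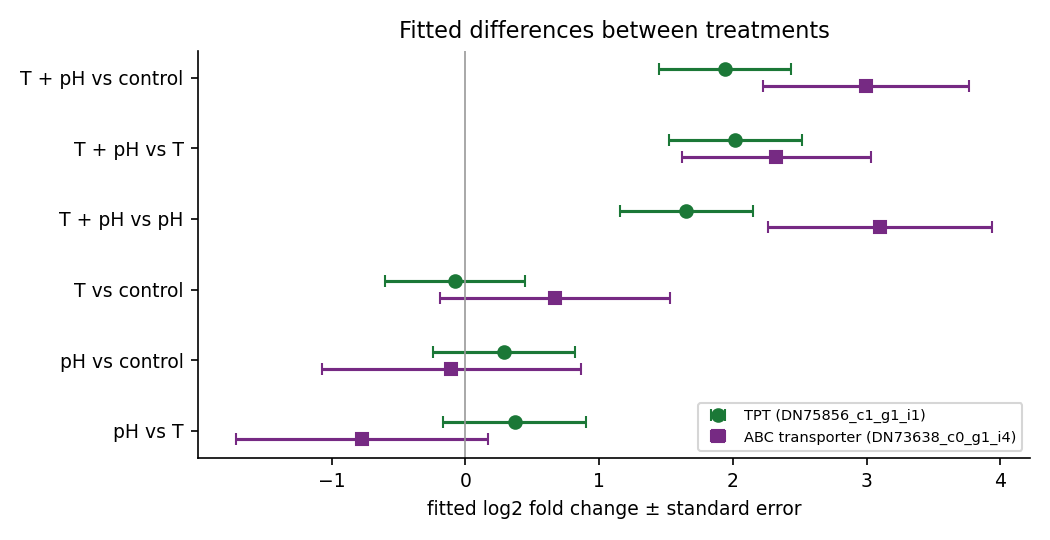
Fitted log2 fold change (x axis) with its standard error (bars) for TPT (circles) and the ABC transporter (squares) in the 6 pairwise comparisons, from the edgeR model over 17 libraries. The 3 comparisons of T + pH lie between 1.65 and 3.10, and the comparisons among the other treatments between -0.77 and 0.67.

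Pooled over libraries, 254 of the 297 ABC transporter counts (85.5%) came from T + pH, 23 from T, 6 from pH and 14 from the control. The ratio of pooled levels was 10.3 for T + pH over the control (exact 95% interval 6.04 to 19.1), 7.34 over T (4.78 to 11.8) and 12.2 over pH (5.51 to 33.5). For TPT the same ratios were 6.44 (5.34 to 7.82), 8.83 (7.22 to 10.9) and 5.04 (4.01 to 6.42). The intervals of both transcripts cover counting error only and leave out the differences between libraries of the same treatment. They are therefore no test of a difference between treatments. These pooled ratios weight libraries by depth and so rest mostly on PO15, which gave 72.1% of the ABC transporter counts. Without PO15 the fitted log2 fold changes of the ABC transporter were 1.63 against T, 2.37 against pH and 2.27 against the control. Without PO8 of the T treatment, the value against T was 3.36.

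When all libraries were thinned to the 78142 counts of the smallest one, TPT kept 59 counts in T + pH, 15 in T, 17 in pH and 17 in the control. The ABC transporter kept 13 counts, in 4 of the 5 T + pH libraries, and 0 in T, 2 in pH and 0 in the control. At that equal depth T + pH still held the most counts of both transcripts, with 1 library more than each other treatment. The thinned log2 fold changes of TPT were 1.55 for T + pH against T, 1.27 against pH and 1.27 against the control.

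**Figure D3:**
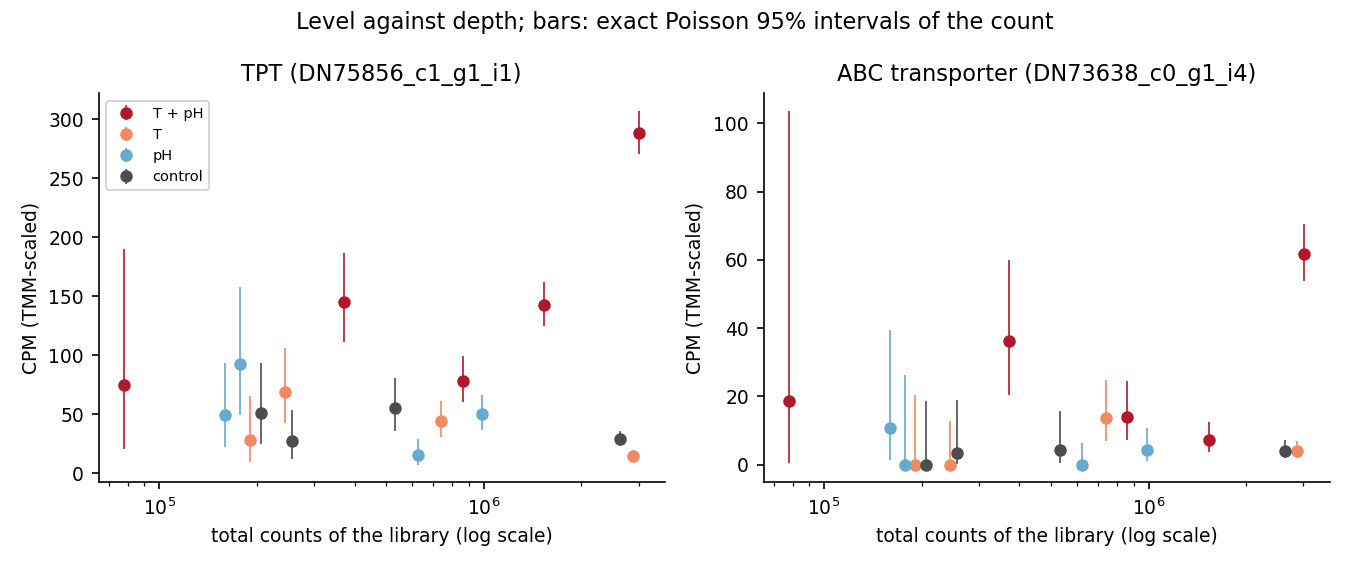
Level (CPM) of TPT (left) and the ABC transporter (right) against the total counts of the library (log scale), coloured by treatment, with exact Poisson 95% intervals of the counts. The shallowest library, PO19 of T + pH with 78142 counts, has the widest interval for both transcripts, and PO15 with 3012292 counts lies above PO2 of T (2874863 counts) and PO10 of the control (2629626 counts), the libraries nearest to it in depth.

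The spread within treatments was compared between the 2 transcripts after the treatment mean of log2 CPM was subtracted from each library. The remaining SD was 0.82 for TPT and 1.16 for the ABC transporter. Libraries high in one were not detectably high in the other, with Pearson r = 0.14 (permutation p = 0.657, n = 17, adjusted p = 0.750) and Spearman rho = 0.13 (permutation p = 0.657, adjusted p = 0.657). Without PO3 and PO2, the libraries farthest from the median, r was 0.069. Leaving out PO15 or PO3 turned the sign of r (-0.031 and -0.023).

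No relation of either transcript with library depth within treatments was detected. With log10 of the library total, r was -0.090 for TPT (permutation p = 0.750, n = 17, adjusted p = 0.750; rho -0.15, permutation p = 0.607) and 0.29 for the ABC transporter (permutation p = 0.312, adjusted p = 0.750; rho 0.34, permutation p = 0.246). Without PO19 and PO2, r was -0.12 for TPT and 0.29 for the ABC transporter. These are 3 relations in 1 family, permuted within treatments and two-sided. The sign of the relation of TPT with depth turned to 0.12 without PO2.

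Trinity names transcripts by the read cluster (DN number and c), the gene within it (g) and the isoform (i). Transcripts with the same DN number are called a component here. The other transcripts of both components were tested, as they had been chosen by name alone. The TPT component held 4 other transcripts, of which 3 passed the filter. They lay in the read clusters c0 and c2 and TPT in c1, so none was of the same Trinity gene. The most abundant of them was DN75856_c0_g1_i3, with 66.3 ± 39.2 CPM in T + pH (SD, n = 5), 60.8 ± 40.7 in T, 59.2 ± 24.0 in pH and 54.7 ± 27.6 in the control (SD, n = 4 each). Its isoform DN75856_c0_g1_i1 had nearly the same counts, which may come from shared reads, with 63.7 ± 37.8 CPM in T + pH and 53.2 ± 27.1 CPM in the control. Its log2 fold change between T + pH and the control was 0.42 (SE 0.48, FDR 0.876 by edgeR's quasi-likelihood test with Benjamini-Hochberg adjustment over 29276 transcripts).

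The ABC transporter component held 3 other transcripts, all in its read cluster (c0), and all were tested. DN73638_c0_g3_i1, a separate Trinity gene with 942 counts in 17 libraries, had 61.4 ± 14.7 CPM in T + pH, 45.4 ± 14.3 in T, 38.2 ± 8.11 in pH and 52.0 ± 10.2 in the control (SD, n = 5 and 4). Its log2 fold change by edgeR was 0.28 (SE 0.42, FDR 0.934) for T + pH against the control, 0.44 (FDR 0.930) against T and 0.73 (FDR 0.597) against pH. DN73638_c0_g1_i3, the other isoform of the ABC transporter's own Trinity gene, had 10 counts, 9 in PO15 and 1 in PO6, and none outside T + pH (FDR 0.225 by edgeR against the control). The isoform's counts could be split with the ABC transporter through shared reads, and the sum of both isoforms gave log2 fold changes of 2.40 for T + pH against T, 3.18 against pH and 3.07 against the control.

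None of the 6 tested transcripts of the components was a DEG (FDR below 0.05 and absolute log2 fold change above 0.3) in any of the 6 comparisons by edgeR, and none with DESeq2. At an unadjusted p under 0.05 there was 1 between T + pH and the control, 2 between T + pH and T, 1 between T + pH and pH, and 0 in the other comparisons. At that threshold stood 10.8% of all tested transcripts between T + pH and the control, 8.86% between T + pH and T and 9.37% between T + pH and pH. DN73638_c0_g1_i3 was the transcript found each time, joined against T by DN75856_c2_g1_i1, which had 7 counts in all. With no count outside T + pH, DN73638_c0_g1_i3 passed the filter only through that treatment. Its direction was thus set by the filter, and nothing is read from these counts beside those shares. Among all tested transcripts, the share of DEGs by edgeR was 0.509% for T + pH against the control (0.126% higher and 0.383% lower in T + pH), 0.102% against T (0.0376% higher and 0.0649% lower), 0.492% against pH (0.0751% higher and 0.417% lower) and 0.0171% for pH against T.

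Set against DN73638_c0_g3_i1, the ABC transporter took 9.16 to 50.4% of their joint counts in T + pH libraries (median 33.3%), 0 to 21.2% in T (median 3.05%), 0 to 20.0% in pH (median 5.41%) and 0 to 6.67% in the control (median 6.56%). For TPT and DN75856_c0_g1_i1 the share of TPT was 54.9 to 100% in T + pH (median 65.6%), 12.9 to 71.4% in T (median 47.8%), 16.7 to 76.5% in pH (median 44.6%) and 24.2 to 66.7% in the control (median 44.5%). Because both transcripts of a pair come from the same library, these shares do not depend on how libraries were scaled. Some rest on very few counts. In PO19 the 33.3% was 1 ABC transporter count beside 2 of its partner, and the 100% was 4 TPT counts beside 0. The shares overlapped between T + pH and the control for TPT and not for the ABC transporter, which had 14 counts in the control. How often other pairs would not overlap was not computed. Since the ABC transporter was chosen for its difference between treatments, nothing is read from this.

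**Figure D4:**
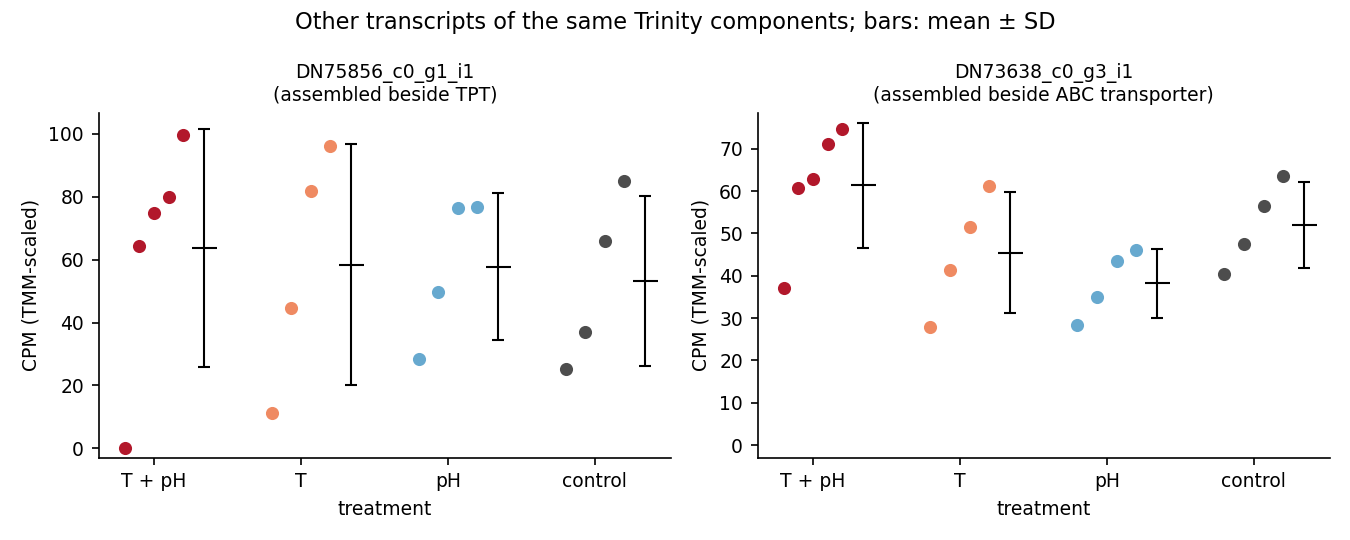
Level (CPM) of DN75856_c0_g1_i1 (left) and DN73638_c0_g3_i1 (right) in each library by treatment, with mean ± SD bars (n = 5 in T + pH and 4 in each other treatment). The first shares the DN number of TPT but not its read cluster, and the second shares both with the ABC transporter. The treatments overlap in both panels, and the means in T + pH (63.7 and 61.4 CPM) are within 1 SD of those in the control (53.2 and 52.0 CPM).

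Other transport proteins of P. onkodes were taken from the same lists of the study, so that their counts are not independent evidence of a direction. Of 20 transcripts, all tested, 5 passed as DEGs in T + pH against the control, with 2 higher and 3 lower. Of all tested transcripts 0.509% were DEGs in that comparison, 0.126% higher and 0.383% lower. The median log2 fold change of the 20 was -1.16 against 0.01 over all tested transcripts. The potassium channel isoforms DN71318_c0_g5_i1 and DN71318_c0_g5_i2 had the same counts in each treatment (98 in T + pH) and enter the list as separate transcripts. The 2 that rose were a putative phosphate permease (DN71071_c0_g2_i1), a carrier of inorganic phosphate, and the plastid sodium and pyruvate cotransporter BASS2 (DN69886_c0_g2_i1). The permease had 228 ± 115 CPM in T + pH and 57.6 ± 13.7 CPM in the control (log2 fold change 1.98, FDR 0.0443 by edgeR), and BASS2 had 69.4 ± 28.6 CPM in T + pH and 14.5 ± 9.93 CPM in the control (2.34, FDR 0.0320 by edgeR).

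The 3 that fell were the acetate and succinate symporter SatP (DN75257_c0_g3_i1) and the NRT2 carriers of nitrate DN68840_c0_g1_i4 and DN76693_c0_g2_i2. SatP had 80.0 ± 68.1 CPM in T + pH and 599 ± 259 CPM in the control (log2 fold change -2.76, FDR 0.0353 by edgeR). The NRT2 transcripts had log2 fold changes of -2.59 (FDR 0.00390 by edgeR) and -2.21 (FDR 0.0279 by edgeR). Against T, 1 of the 20 was lower in T + pH (the NRT2 transcript DN68840_c0_g1_i4), and against pH 5 were lower (SatP and 4 NRT2 transcripts), with 0 higher in either by edgeR. Of all tested transcripts, 0.0649% were DEGs lower in T + pH against T and 0.417% against pH. Set against the control, T and pH each gave 0 DEGs of the list by edgeR and 0 by DESeq2, which says nothing particular to the list, since edgeR called 0 of all 29276 tested transcripts in either comparison. An unadjusted edgeR p under 0.05 was found for 4 of the 20 in T and 1 in pH, against 6.92% and 5.60% of all tested transcripts. The count of 5 rested on single libraries, and was 1 without PO12, PO15 or PO10, 2 without PO19 and 3 without PO16.

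The list also held 4 other ABC transcripts. Between T + pH and the control edgeR called 0 of them a DEG (3 had an unadjusted p under 0.05, against 10.8% of all tested transcripts) and DESeq2 called 1. ABC transporter F family member 5 (DN75668_c3_g1_i1) had 134 ± 48.4 CPM in T + pH and 41.3 ± 21 CPM in the control (log2 fold change 1.62, FDR 0.0766 by edgeR). F family proteins of this kind carry the ATP-binding part without a membrane part. A match to the mitochondrial B family member 8 (DN73048_c0_g1_i1) had a log2 fold change of 1.14 (FDR 0.305 by edgeR), a match to B family member 6 (DN73403_c0_g1_i2) of -0.91 (FDR 0.759) and a putative multidrug exporter (DN72674_c5_g2_i1) of -1.93 (FDR 0.155). Values in the ABC group therefore lay on both sides of 0. Of the plastid carriers, the glycolate and glycerate translocator PLGG1 (DN74961_c0_g1_i3), which serves photorespiration, had 24.1 ± 16.3 CPM in T + pH and 5.89 ± 6.77 CPM in the control (2.48, FDR 0.101 by edgeR), and the BASS1 match (DN76582_c0_g1_i1) had a log2 fold change of -1.41 (FDR 0.0932).

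Enzymes of the Calvin cycle and glycolysis were listed in the same way, as 8 transcripts of the study's lists, and again give no independent evidence. Glyceraldehyde-3-phosphate dehydrogenase (GAPDH, 2 transcripts) and aldolase (3) act on triose phosphate itself, while phosphoglycerate kinase (1) and phosphoribulokinase (2) act on other intermediates of these pathways. Between T + pH and the control 3 were DEGs, all higher, where 0.126% of all tested transcripts were DEGs higher in T + pH. All 8 fitted values were positive (with plain library totals and with DESeq2 as well), and the median log2 fold change was 2.48. The 8 are not separate readings. The aldolase isoforms DN75582_c0_g4_i1 and DN75582_c0_g4_i2 had nearly the same counts (138 and 135 in T + pH), which may come from shared reads. The GAPDH transcript DN74877_c1_g1_i1, whose name does not tell the Calvin cycle from glycolysis, had 249 ± 156 CPM in T + pH and 54.6 ± 20.6 CPM in the control (2.28, FDR 0.0148 by edgeR). Phosphoglycerate kinase (DN75667_c0_g1_i2), the enzyme of the adjoining step, had a log2 fold change of 2.65 (FDR 0.0496 by edgeR). Phosphoribulokinase (DN72649_c1_g2_i2), which regenerates the acceptor of CO2, had 315 ± 81.1 CPM in T + pH and 47.4 ± 21.5 CPM in the control (2.78, FDR 0.000933 by edgeR). Against T 3 of the 8 were DEGs (GAPDH, phosphoribulokinase and the fructose-1,6-bisphosphate aldolase DN74098_c0_g1_i1) and against pH 4 (the same and phosphoglycerate kinase), all higher in T + pH. Of all tested transcripts, 0.0376% were DEGs higher in T + pH against T and 0.0751% against pH. T and pH against the control gave 0 by edgeR, at an unadjusted p under 0.05 as well, and 0 by DESeq2, where edgeR called 0 of all tested transcripts too. The count of 3 was 1 without PO12, PO15 or PO10, 6 without PO6 and 5 without PO17.

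**Figure D5:**
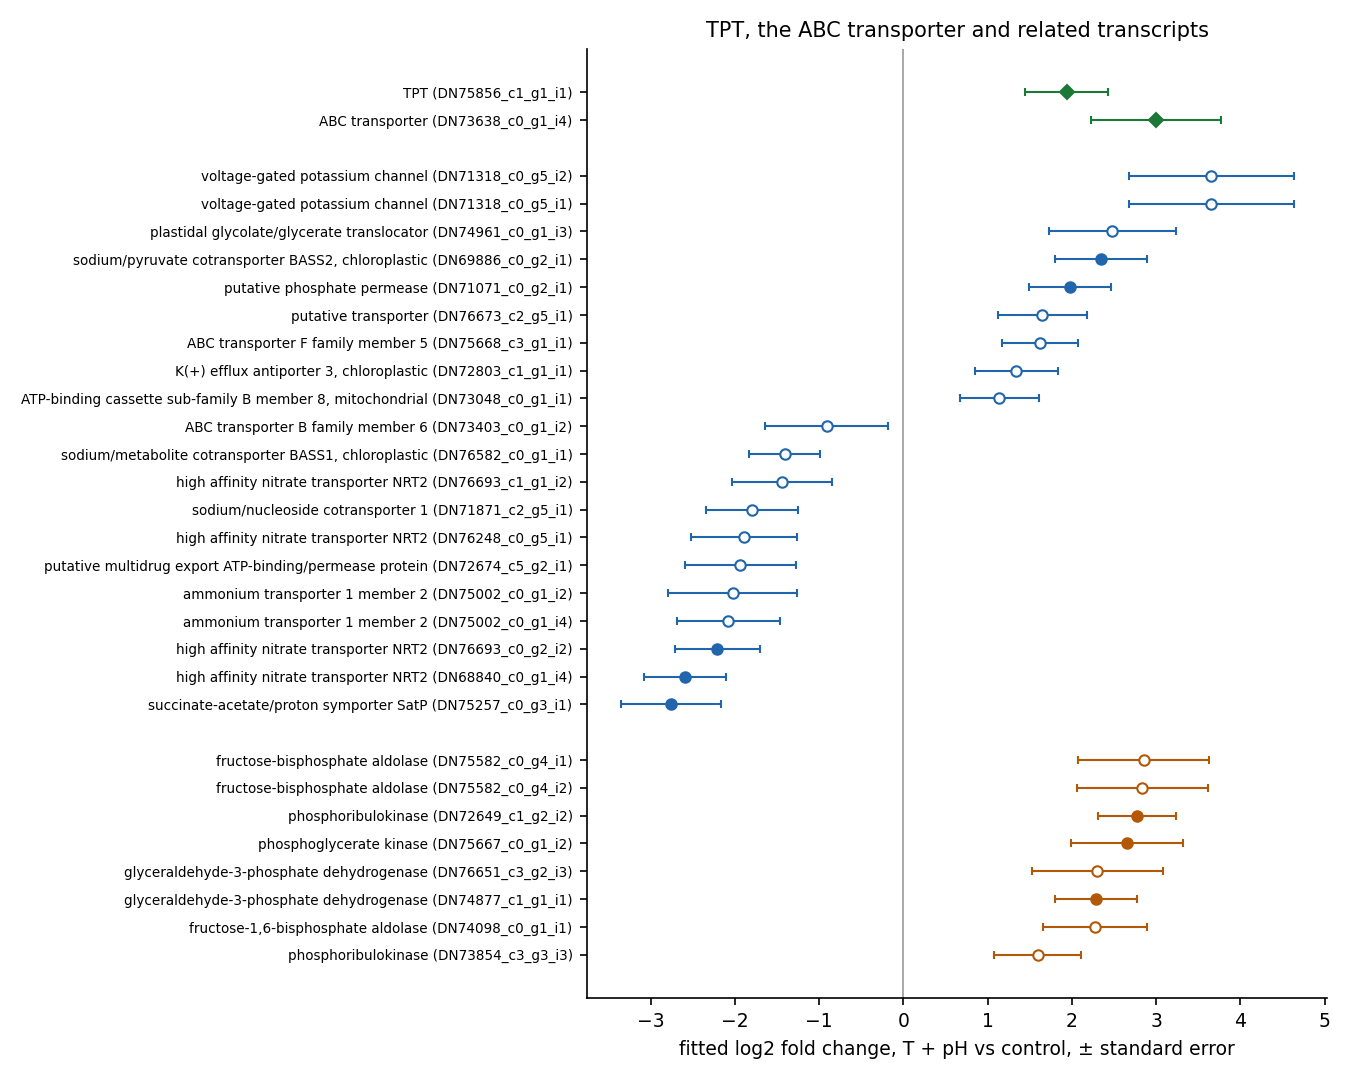
Fitted log2 fold change of T + pH against the control (x axis) with its standard error (bars) for TPT and the ABC transporter (diamonds, described without a test), 20 transport transcripts (blue circles) and 8 transcripts of Calvin cycle and glycolysis enzymes (orange circles). Filled circles are DEGs and open circles are not, with 5 DEGs among the transport transcripts (2 higher and 3 lower in T + pH) and 3 among the enzymes, all higher in T + pH.

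The transcripts with the profile most like each carrier were sought among 11378 transcripts with at least 100 counts, by Pearson r of log2 CPM over the 17 libraries, as a description only, since all points share the libraries and their depths. For TPT the closest was GAPDH (DN74877_c1_g1_i1; r = 0.82), followed by PLGG1 (DN74961_c0_g1_i3; r = 0.76), DN71939_c0_g6_i1 (0.76), DN75000_c0_g1_i5 (0.74) and DN74729_c0_g1_i3 (0.74). For the ABC transporter they were DN70020_c0_g4_i2 (r = 0.91), its isoform DN70020_c0_g4_i1 (0.87), DN73963_c1_g2_i1 (0.87), DN74340_c0_g2_i1 (0.85) and DN75131_c0_g1_i1 (0.85). None was on both lists. With treatment means subtracted, r with TPT was 0.58 for GAPDH, 0.53 for PLGG1, 0.59 for DN71939_c0_g6_i1, 0.53 for DN75000_c0_g1_i5 and 0.59 for DN74729_c0_g1_i3. In the same way, r with the ABC transporter was 0.84 for DN70020_c0_g4_i2. The r between TPT and the ABC transporter themselves was 0.60, at place 76 among the transcripts ranked by likeness to TPT and at place 266 by likeness to the ABC transporter.

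The samples could hold RNA of other organisms, and the study's lists include 4 transcripts whose best match lay outside the red algae, in green algae, bacteria or corals. They come from the list that was drawn from transcripts differing between treatments, so their direction is no independent evidence. Summed, they stood at 149 to 264 CPM in T + pH, 39.0 to 56.6 in T, 27.2 to 58.0 in pH and 31.2 to 40.7 in the control, and each had counts in every treatment. The sum was carried mainly by DN74711_c1_g3_i1, a green algal match with a mean of 119 CPM in T + pH and 14.4 CPM in the control, which was the 1 DEG of the 4 between these treatments (FDR 0.00161 by edgeR, higher in T + pH). Each of the other 3, 1 of them a GAPDH of the enzyme list, had a T + pH library at 0 and a CPM range that overlapped the control. A 0 says little in a shallow library, as 1 count in PO19 is 18.6 CPM. Means in T + pH and control were 17.2 and 5.05 CPM for DN76651_c3_g2_i3, 38.5 and 8.43 for DN71816_c0_g1_i2, and 15.7 and 7.70 for DN75126_c0_g1_i3. All 4 fitted values were positive, and all 4 had an unadjusted edgeR p under 0.05, against 10.8% of all tested transcripts. The 4 transcripts used to check the tissue summed to 35.9 to 153 CPM in T + pH, 26.4 to 55.7 in T, 10.9 to 35.8 in pH and 22.0 to 63.6 in the control. All of them but CP47 come from the same list of the study, so this sum is no independent evidence either. Against the control, 3 of these 4 had a positive fitted value in T + pH. The part of either group in the levels of TPT and the ABC transporter was not tested.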

How the data were processed

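Total RNA of cleaned P. onkodes fragments was sequenced by CEL-Seq2. Reads were handled with bcl2fastq and FastQC per the labels, trimmed, mapped with bowtie2 to a de novo Trinity assembly and counted per transcript with the CEL-Seq pipeline by the authors, who deposited counts without normalization, 1 column per library. Whether these counts include a correction for shared molecular identifiers is not known here. Of the labelled P. onkodes libraries, 2 (PO9 and PO13) were not analysed here. The total of PO12 in the count table is not the one listed for it in the study's sequencing statistics, and results without it are given where they change a count.

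Transcripts with at least 5 counts in all were fitted with edgeR 4.0.16 (limma 3.58.1, R 4.3.3; TMM scaling, robust quasi-likelihood fit of earlier versions, 1 model over 17 libraries of 4 treatments). DEGs had an FDR below 0.05 over all 29276 transcripts and an absolute log2 fold change above 0.3. Log2 CPM used a prior count of 2. Correlations were permuted within treatments (100000 draws, two-sided). Count intervals are exact at 95%, and the limit for a count of 0 is 3 counts. Library totals were 78142 to 3012292. Scripts ran in Python 3.11.15 with matplotlib 3.10.9, scipy 1.17.1, pandas 2.3.3 and numpy 2.4.6, and were tested on simulated data first.

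The transcripts and lists were chosen with earlier results of these data known. Named are the 2 carriers, transcripts with the same DN number, the 5 most similar profiles of each, and, of the lists, DEGs between T + pH and the control and the ABC, BASS, phosphate and glycolate/glycerate carriers. Alternatives were plain library totals, DESeq2 1.42.0, no filter, only the libraries of the treatments compared, thinning to equal depth, sums per Trinity gene, a prior count of 0.5 for the correlations, and leaving out each library.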

Additional observations from a re-analysis of the deposited data

How the results depend on the processing

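Log2 fold changes of TPT and the ABC transporter between T + pH and each other treatment stayed positive in all alternatives. Leaving out 1 library each gave 1.49 to 2.15 (control), 1.62 to 2.43 (T) and 1.25 to 2.02 (pH) for TPT, and 2.27 to 3.32, 1.63 to 3.36 and 2.37 to 3.67 for the ABC transporter. Thinned to equal depth, the ABC transporter gave 4.39 against the control and 4.39 against T, both at 0 counts, 2.01 against pH (3.10 unthinned), and 2.37 for pH against the control. These are fitted values from few counts and no bounds. Transport DEGs numbered 9 with no filter, 12 with only the libraries of both treatments and 3 thinned, and 1 to 7 with a library left out, against 5. Enzyme DEGs numbered 6 with plain totals, 6 with no filter, 7 with only both treatments, and 1 to 6 with a library left out, against 3. DESeq2 called 2 and 3 transport transcripts in T + pH against T and pH (edgeR 1 and 5) and 3 and 2 enzymes (edgeR 3 and 4). The share of all tested transcripts that DESeq2 called is not given here, so its counts stand without that comparison. Plain totals moved the median of all tested transcripts in T + pH against pH to 0.23, against 0.08 with TMM. Why these counts moved was not tested, other than that thinning leaves fewer counts. The correlation of TPT with depth was 0.019 with plain totals and -0.32 to 0.12 with a library left out. That between TPT and the ABC transporter was -0.031 to 0.30. No other transcript of the components was a DEG in any alternative. No paired analysis was possible because each library number occurs once, so treatments share none. Low counts and the weight of PO15 both limit the ABC transporter's values.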
